A study of Gallus gallus with 9 samples.

Results

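The genes described here are 36 listed genes of glycolysis and of the hypoxia response, followed in explants of chick anterior heart field tissue cultured with or without BMP4. They were chosen by name: the probe sets of the array table whose annotated symbol is on the list, with the brightest probe set standing for each gene. Of the 36 names, 32 matched by symbol and 3 by a synonym, and PFKFB4 was not analysed here. PGK1 and PGK2 name 1 chicken gene and 1 probe set in the annotation, written PGK below, so 34 distinct genes were measured of 13009 named genes on the array. PKM carries the RefSeq symbol PKLR and SLC2A3 the RefSeq symbol SLC2A14. The 34 genes are 16 glycolytic enzymes, 8 genes of fuel transport and control, and 10 genes of the hypoxia response with no step in glycolysis, called hypoxia-only genes below. All 34 passed the filter on dim probe sets.

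Glycolysis splits glucose into pyruvate and makes ATP without oxygen, and lactate dehydrogenase then turns pyruvate into lactate. In low oxygen the transcription factor HIF-1, whose alpha subunit is HIF1A, is no longer marked for breakdown by the EGLN prolyl hydroxylases and switches on genes of glucose uptake, glycolysis, vessel growth and mitochondrial clearance. Many glycolytic genes are HIF-1 targets, and they also answer to growth signals and to differentiation, while heart muscle shifts from glycolysis toward fat oxidation as it matures.

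RNA came from explants of the anterior heart field, a mesoderm that supplies heart muscle to the outflow end of the heart. The BMP4-treated groups received human recombinant BMP4 at 200 ng/ml for 3 h (1 array), 12 h (2 arrays, A and B) or 24 h (1 array). The untreated groups had no added factor and were taken at 0 h (1 array), 3 h (1 array), 12 h (2 arrays, A and B) or 24 h (1 array). All cultured explants sat on collagen in a medium with fetal calf serum and chick embryo extract, and the labels give no oxygen level, embryo stage or number of embryos per sample. The 9 samples were read on 9 Affymetrix chicken arrays, as MAS5 signal on a linear scale. Differences below are on the log2(signal + 27.79) scale with their standard error, tested with limma over 28329 probe sets, and a gene is said to rise or fall only at a Benjamini-Hochberg adjusted p under 0.05. Signals of different genes come from different probes and are not compared with each other.

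The 2 arrays of the 12 h pair correlated at r = 0.972 with BMP4 and 0.97 without, and all pairs of arrays lay between 0.939 and 0.972. In comparisons at 1 time or against 0 h, the residual spread comes only from those pairs, since the other groups hold 1 array. In comparisons over both agents or across times, the lone 3 h and 24 h arrays add to it. limma also borrows spread from all probe sets, with a weight of 8.2 degrees of freedom against 2 residual ones in the 9-array fit. The labels do not say whether A and B are separate explants. In tissue samples such as these, fewer cells of a type and less RNA per cell cannot be told apart. ISL1 and NKX2-5, which define the heart field, were bright on all 9 arrays, whereas GATA4, MEF2C and FGF10 were near the dim end. The 7 cardiomyocyte markers summed to 22781 at 3 h, 47110 and 45060 at 12 h and 105243 at 24 h with BMP4, and to 26109 at 0 h, 16835 at 3 h, 20266 and 29651 at 12 h and 52439 at 24 h without. Between 3 and 24 h all 7 of these rose, as did 3 of 8 endothelial markers and 3 of 7 foregut and epithelial ones, while 4 of 6 neural crest markers fell, as did 3 of 9 markers of the splanchnic mesoderm and anterior heart field (TBX1, TCF21 and FOXC2). The ratio of the 3′ to the 5′ GAPDH control signal, a sign of RNA integrity, was 1.63 with BMP4 and 1.32 without at 24 h, against 1.84 with BMP4 and 2.22 without at 3 h. The part of these shifts in the results below was not tested.

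From 3 to 24 h of culture more of the 34 genes rose than fell, among enzymes, transport and control genes and hypoxia-only genes alike. Against the 0 h array, in untreated explants, only enzymes passed, as given below. Between 3 h and 24 h, over both agents, 10 of the 34 genes rose and 2 fell, beside 5.64% and 4.31% of the 11721 named genes tested. The genes that rose were the enzymes LDHA, HK1, PFKP, GPI and PGK, the glucose carrier SLC2A1, the kinase PDK4, and ADM, BNIP3 and BNIP3L of the hypoxia-only group. SLC16A1 and NDRG1 fell. Without the variance trend 2 of these 12 calls were left, those of HK1 and LDHA, while calls over all probe sets went from 1868 to 429. The median log2 difference was 0.21 for the 16 enzymes, 0.35 for the 8 transport and control genes and 0.34 for the 10 hypoxia-only genes, against -0.03 over all probe sets tested.

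LDHA, the lactate dehydrogenase subunit that favours making lactate, changed most among the 34 genes between 3 and 24 h. With BMP4 its signal was 1710 at 3 h, 7079 and 7316 at 12 h and 11903 at 24 h. Without BMP4 it was 2446 at 0 h, 1675 at 3 h, 8620 and 5274 at 12 h and 18587 at 24 h. Both arms were low at 3 h and far higher at 24 h, and the 12 h arrays of the arms overlapped. The difference between 24 and 3 h was 3.12 ± 0.22, or 8.66-fold (adjusted p = 5.77e-06), made of 2.02 ± 0.19 from 3 to 12 h (adjusted p = 7.52e-05) and 1.09 ± 0.19 from 12 to 24 h (adjusted p = 0.0226). By the brightest probe sets LDHA was the 1 member of the 34 that rose between 12 and 24 h, where 0.572% of named genes rose. Without the untreated 24 h array that LDHA difference was 0.73 and lost its call. Dimmer probe sets of NDRG1, at 1.5 (adjusted p = 0.00691) and 1.06 (adjusted p = 0.0285), and of GPI, at 0.89 (adjusted p = 0.0364), also rose between 12 and 24 h. LDHB, the subunit that favours the reverse reaction, did not pass the test and spanned 23411 to 28970 over the 9 arrays, with its lowest value on the untreated 24 h array and its highest at 0 h.

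**Figure D1:**
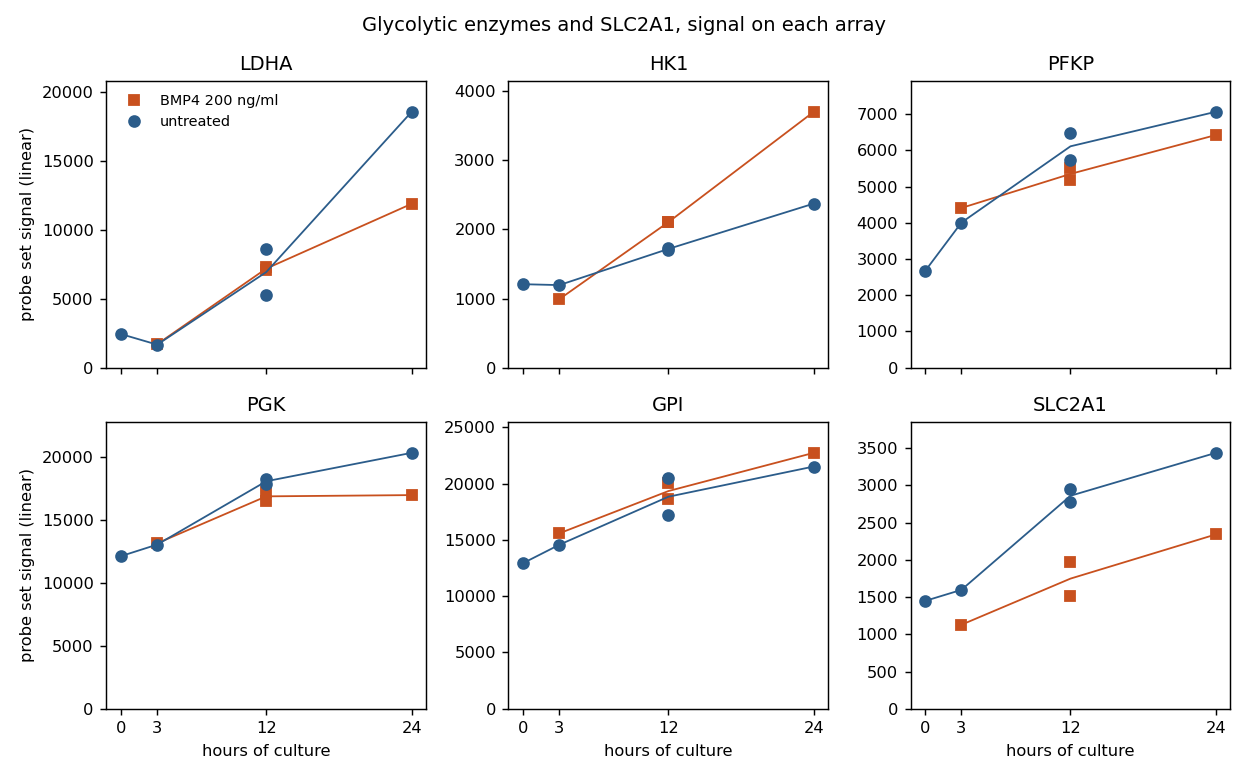
Signal of 5 glycolytic enzymes and the glucose carrier SLC2A1 (linear scale, from 0) against hours of culture, with squares for BMP4-treated arrays, circles for untreated arrays and lines through the mean at each time. LDHA climbs in both arms to 11903 with BMP4 and 18587 without at 24 h, and SLC2A1 is lower with BMP4 than without at 3, 12 and 24 h.

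HK1, the hexokinase that traps glucose in the cell, read 991 at 3 h, 2105 and 2106 at 12 h and 3702 at 24 h with BMP4. In untreated explants it read 1208 at 0 h, 1195 at 3 h, 1728 and 1708 at 12 h and 2374 at 24 h. Its difference between 24 and 3 h was 1.42 ± 0.20 (adjusted p = 0.00114), and all 3 HK1 probe sets rose, by 1.17 to 1.42. HK2, the inducible hexokinase and a well known HIF-1 target, did not follow. Its signal with BMP4 was 122 at 3 h, 86.6 and 48.7 at 12 h and 40.7 at 24 h, and without BMP4 it was 105 at 0 h, 115 at 3 h, 71.0 and 82.3 at 12 h and 45.7 at 24 h. Both arms ended lowest at 24 h, with a difference from 3 h of -1.04 ± 0.34 that did not pass (adjusted p = 0.096).

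GPI, which interconverts glucose and fructose phosphates, read 15582 at 3 h, 18642 and 20030 at 12 h and 22733 at 24 h with BMP4. Untreated arrays gave 12929 at 0 h, 14567 at 3 h, 20489 and 17177 at 12 h and 21517 at 24 h. The difference between 24 and 3 h was 0.55 ± 0.10 (adjusted p = 0.00682) in both arms together. PFKP, the platelet-type phosphofructokinase at the committed step, gave 4410 at 3 h, 5188 and 5513 at 12 h and 6425 at 24 h with BMP4. Its untreated values were 2668 at 0 h, 4007 at 3 h, 6493 and 5733 at 12 h and 7067 at 24 h. It had the lowest signal before culture and differed by 0.68 ± 0.14 between 24 and 3 h (adjusted p = 0.0109). PFKL and PFKM, the liver and muscle forms of the same enzyme, did not pass in any comparison and spanned 1114 to 2048 and 463 to 1046 over the 9 arrays.

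PGK, phosphoglycerate kinase and the first ATP-making step, read 13137 at 3 h, 16496 and 17223 at 12 h and 16960 at 24 h with BMP4. Without BMP4 it was 12112 at 0 h, 13033 at 3 h, 18245 and 17871 at 12 h and 20315 at 24 h. The difference between 24 and 3 h was 0.50 ± 0.10 (adjusted p = 0.00943). Several of these calls were lost when 1 array was left out, where calls over all probe sets fell as well. The cause of the losses was not tested. GPI was at 0.57 (adjusted p = 0.0628) without the BMP4 3 h array and 0.54 (adjusted p = 0.0639) without the BMP4 24 h array. PFKP was at 0.52 (adjusted p = 0.109), 0.65 (adjusted p = 0.0658) and 0.71 (adjusted p = 0.0702) without the untreated 3 h, untreated 24 h and BMP4 24 h arrays, and PGK at 0.42 (adjusted p = 0.0864) and 0.40 (adjusted p = 0.0959) without the untreated 3 h and 24 h arrays.

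GAPDH, often used as a loading control, stayed between 27703 and 32888. With BMP4 it read 28955 at 3 h, 32101 and 29355 at 12 h and 31040 at 24 h, and without BMP4 28888 at 0 h, 27703 at 3 h, 30875 and 31379 at 12 h and 32888 at 24 h. Its difference between 24 and 3 h was 0.17 ± 0.09 (adjusted p = 0.276). It is 1 of 4 enzymes, with ENO1, PKM and LDHB, whose mean signal exceeded 20000, and all 4 moved little, by -0.15 to 0.17. Dimmer probe sets of the same genes did not always match. A second ENO1 probe set with a mean of 4437 rose by 0.99 (adjusted p = 0.018), where the bright one gave 0.15 (adjusted p = 0.395), and the 2 dimmer GPI probe sets rose by 1.07 and 0.92. Bright probe sets on an array can compress differences, and whether they did so here was not tested. Of 14 members with several tested probe sets, 12 had 1 sign in all of them between 24 and 3 h, the exceptions being EGLN3 and PFKFB3. The remaining enzymes did not pass in any comparison. Over the 9 arrays the aldolase ALDOC spanned 9129 to 13395, the triose isomerase TPI1 16790 to 21003 and the mutase PGAM1 11859 to 15466. The neuronal enolase ENO2 spanned 196 to 660, with its highest value on the untreated 24 h array.

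Among transport and control genes, SLC2A1, the basal glucose transporter, rose between 3 and 24 h over both agents together. It read 1129 at 3 h, 1976 and 1522 at 12 h and 2343 at 24 h with BMP4, and 1449 at 0 h, 1598 at 3 h, 2950 and 2774 at 12 h and 3439 at 24 h without. The difference between 24 and 3 h was 1.06 ± 0.18 (adjusted p = 0.00299), and it held without each 3 h or 24 h array in turn. SLC2A3, a second glucose carrier, did not pass: it was 1284 at 3 h, 1002 and 1111 at 12 h and 819 at 24 h with BMP4, and 1113 at 0 h, 1076 at 3 h, 1039 and 1148 at 12 h and 1104 at 24 h without. PDK4, a kinase that inhibits pyruvate dehydrogenase and so keeps pyruvate from becoming acetyl-CoA, known from muscle as a fasting gene, read 313 at 3 h, 478 and 337 at 12 h and 898 at 24 h with BMP4. Untreated explants gave 241 at 0 h, 254 at 3 h, 423 and 313 at 12 h and 562 at 24 h. Its highest array in each arm was at 24 h, with a difference from 3 h of 1.25 ± 0.27 (adjusted p = 0.014). PDK1, the pyruvate dehydrogenase kinase best known as a HIF-1 target, did not pass and had its highest signal, 3353, at 0 h. Nor did its relative PDK3 (1126 to 2088 over the 9 arrays), the lactate exporter SLC16A3 (1299 to 2976) or PFKFB3 (79.0 to 225), which makes the activator of phosphofructokinase.

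SLC16A1, a monocarboxylate carrier that moves lactate and pyruvate, fell. With BMP4 it read 5630 at 3 h, 3365 and 3066 at 12 h and 2196 at 24 h, and without BMP4 5689 at 0 h, 6212 at 3 h, 4759 and 4020 at 12 h and 4688 at 24 h. All 3 later BMP4 arrays lay below every untreated array. The difference between 24 and 3 h was -0.88 ± 0.20 (adjusted p = 0.0175), which was -0.62 (adjusted p = 0.285) without the BMP4 3 h array and -0.50 (adjusted p = 0.243) without the BMP4 24 h array. PDK4 likewise was at 1.27 (adjusted p = 0.0648), 1.24 (adjusted p = 0.127) and 1.02 (adjusted p = 0.168) without the untreated 3 h, BMP4 3 h and BMP4 24 h arrays.

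Of the 10 hypoxia-only genes 3 rose between 3 and 24 h, 1 fell and 6 did not pass. HIF1A itself did not pass in any comparison: its signal was 6602 at 3 h, 4701 and 5405 at 12 h and 4845 at 24 h with BMP4, and 5080 at 0 h, 4963 at 3 h, 4406 and 4857 at 12 h and 4618 at 24 h without. The HIF-1 protein is set mainly by breakdown, which an array does not read. ADM, the vessel-relaxing peptide adrenomedullin, read 1497 at 3 h, 2912 and 2531 at 12 h and 3759 at 24 h with BMP4. Without BMP4 it was 1673 at 0 h, 1419 at 3 h, 1876 and 1881 at 12 h and 2808 at 24 h. It was highest at 24 h in each arm, with a difference from 3 h of 1.14 ± 0.17 (adjusted p = 0.00173).

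BNIP3 and BNIP3L mark mitochondria for removal. BNIP3 read 1549 at 3 h, 2113 and 1735 at 12 h and 3189 at 24 h with BMP4, and 1948 at 0 h, 1670 at 3 h, 2148 and 1708 at 12 h and 2479 at 24 h without. BNIP3L read 2798 at 3 h, 5266 and 4066 at 12 h and 4401 at 24 h with BMP4, and 3845 at 0 h, 3308 at 3 h, 4571 and 4228 at 12 h and 5403 at 24 h without. Both were lowest at 3 h in each arm, with differences between 24 and 3 h of 0.80 ± 0.19 (adjusted p = 0.0253) for BNIP3 and 0.68 ± 0.17 (adjusted p = 0.0277) for BNIP3L. BNIP3 was at 0.91 (adjusted p = 0.059), 0.68 (adjusted p = 0.255) and 0.60 (adjusted p = 0.261) without the untreated 3 h, BMP4 3 h and BMP4 24 h arrays. BNIP3L lost its call without each of the lone cultured arrays, at 0.77 (adjusted p = 0.0645), 0.54 (adjusted p = 0.184), 0.58 (adjusted p = 0.264) and 0.81 (adjusted p = 0.0702) without the untreated 3 h, untreated 24 h, BMP4 3 h and BMP4 24 h arrays.

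Of the 10 hypoxia-only genes, 4 had a negative difference between 24 and 3 h over both agents. CA9, at -1.0, did not pass (adjusted p = 0.136), and its arms went opposite ways. It read 11848 at 3 h and 2537 at 24 h with BMP4, and 10583 at 3 h and 12322 at 24 h without. NDRG1, a stress and hypoxia gene, was 1 of the 4 and had its highest signal at 3 h in both arms. With BMP4 it read 4988 at 3 h, 1202 and 1078 at 12 h and 1809 at 24 h, and without BMP4 1798 at 0 h, 3437 at 3 h, 1303 and 763 at 12 h and 2384 at 24 h. In both arms the 12 h arrays were the lowest. The fall from 3 to 12 h was -1.93 ± 0.22 (adjusted p = 0.000306), and all 3 NDRG1 probe sets fell, by -1.68 to -2.15. From 12 to 24 h the brightest probe set gave 0.94 ± 0.22 and did not pass (adjusted p = 0.0927). The other 2 rose, by 1.5 (adjusted p = 0.00691) and 1.06 (adjusted p = 0.0285). At 24 h NDRG1 was still below 3 h, by -0.99 ± 0.26 (adjusted p = 0.036). The other 2 probe sets did not pass there, at -0.65 (adjusted p = 0.154) and -0.62 (adjusted p = 0.128), nor did the mean of its probe sets, at -0.75 (adjusted p = 0.0626). The difference of the brightest probe set was -0.72 (adjusted p = 0.385) without the BMP4 3 h array and -0.64 (adjusted p = 0.348) without the BMP4 24 h array.

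Another pair of oxygen-response genes was dim throughout. EGLN3, a HIF prolyl hydroxylase and HIF target, read 129 at 3 h, 104 and 29.2 at 12 h and 87.7 at 24 h with BMP4, and 83.1 at 0 h, 42.8 at 3 h, 85.3 and 36.9 at 12 h and 55.5 at 24 h without. DDIT4, an inhibitor of mTOR signalling, read 48.5 at 3 h, 81.4 and 121 at 12 h and 95.9 at 24 h with BMP4, and 72.4 at 0 h, 73.8 at 3 h, 66.4 and 65.1 at 12 h and 68.2 at 24 h without. The A and B arrays of EGLN3 differed widely in each arm, and neither gene passed in any comparison. EGLN1, the main HIF prolyl hydroxylase, spanned 3839 to 6482 and did not pass either.

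**Figure D2:**
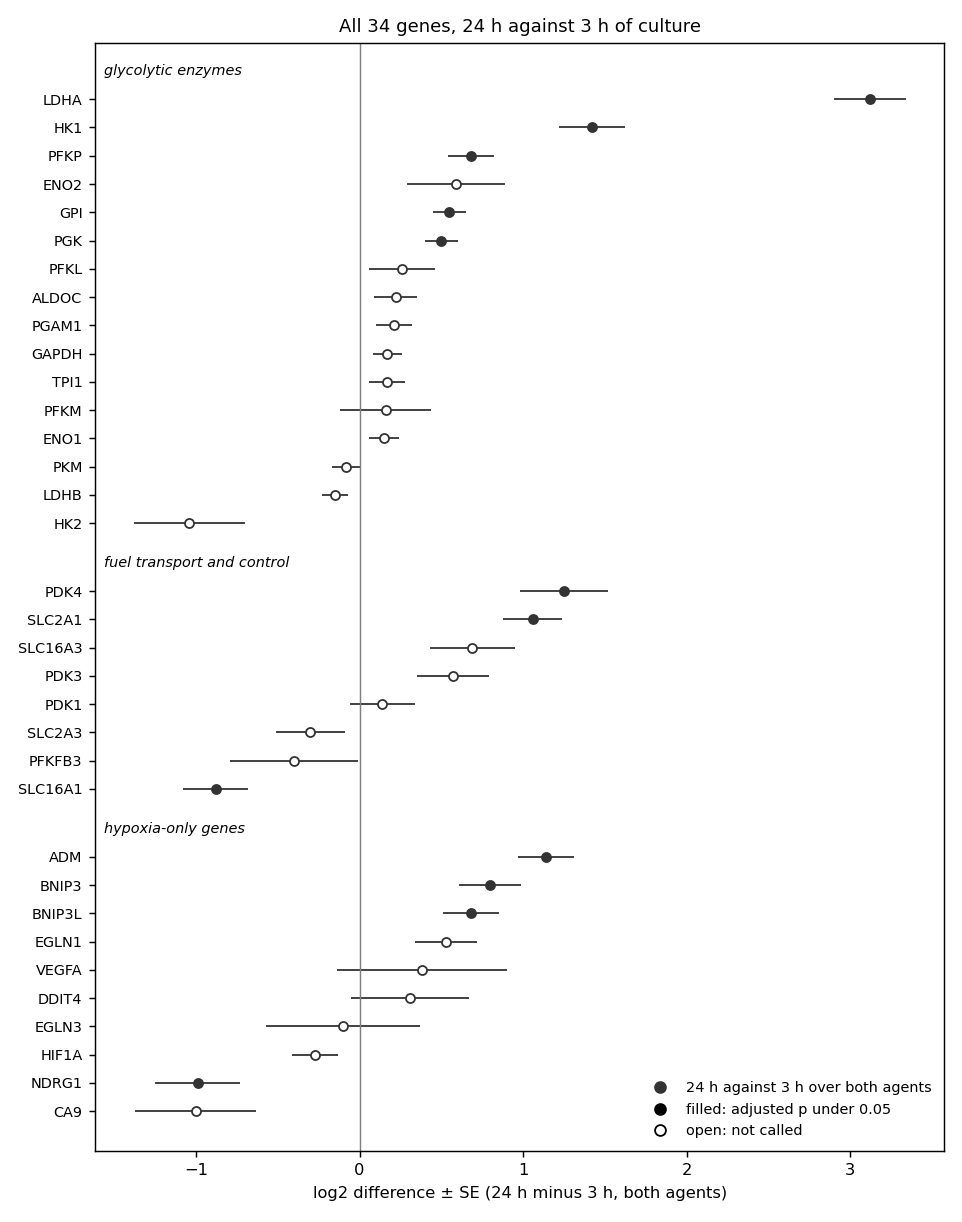
Log2 difference between 24 h and 3 h of culture over both agents, with its standard error, for all 34 genes grouped by role, with filled points for genes called at an adjusted p under 0.05. LDHA stands at 3.12, HK1 at 1.42 and PDK4 at 1.25, while HK2 lies at -1.04 with an open point and NDRG1 at -0.99 with a filled one.

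The rise was already present at 12 h for part of the list. Between 3 and 12 h, 5 members rose and 1 fell, beside 2.86% and 1.77% of named genes. Besides LDHA and NDRG1 these were HK1 at 0.79 ± 0.18 (adjusted p = 0.0283), PGK at 0.41 ± 0.09 (adjusted p = 0.0204), SLC2A1 at 0.72 ± 0.15 (adjusted p = 0.0226) and ADM at 0.62 ± 0.15 (adjusted p = 0.0424). The HK1 and ADM calls ended without each 12 h array and without the BMP4 3 h array, where HK1 was at 0.46 (adjusted p = 0.475) and ADM at 0.42 (adjusted p = 0.496). Without the untreated 3 h array PGK was at 0.33 (adjusted p = 0.228) and SLC2A1 at 0.63 (adjusted p = 0.199), and without the BMP4 3 h array PGK was at 0.50 (adjusted p = 0.0904) and SLC2A1 at 0.80 (adjusted p = 0.133). PGK also lost its call without the untreated 12 h A or BMP4 12 h B array, and SLC2A1 without the untreated 12 h A, untreated 12 h B or BMP4 12 h A array.

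Untreated explants were also set against tissue that was not cultured. At 3 h no member passed, beside 0.52% of named genes called. In limma 2 of the 34 had an unadjusted p under 0.05, beside 11.6% of named genes. At 12 h PFKP, at 1.18 ± 0.17 (adjusted p = 0.0116), and LDHA, at 1.45 ± 0.25 (adjusted p = 0.0256), were above 0 h, where 1.24% of named genes rose. At 24 h LDHA, at 2.91 ± 0.29 or 7.52-fold (adjusted p = 0.000968), PFKP, at 1.40 ± 0.20 (adjusted p = 0.00777), and PGK, at 0.74 ± 0.14 (adjusted p = 0.0312), were above 0 h, where 1.89% rose. No hypoxia-only gene passed in any of these comparisons with 0 h, although VEGFA stood at 1.34 ± 0.34 (adjusted p = 0.0996) at 24 h. SLC2A1 stood just outside the threshold at 24 h, at 1.23 ± 0.26 (adjusted p = 0.0509). With no filter LDHA at 12 h had an adjusted p of 0.0661 and PGK at 24 h one of 0.0817, and over the mean of its probe sets PFKP had 0.162 at 12 h and 0.0648 at 24 h. Without the variance trend none of these comparisons with 0 h called a member, and none called any probe set.

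The enzymes and the hypoxia-only genes are set side by side here as a description, without a test. Against 0 h the enzymes had a median log2 difference of 0.02 at 3 h, 0.33 at 12 h and 0.28 at 24 h in untreated explants, with 10, 13 and 12 of 16 above 0 h. The hypoxia-only genes had -0.22 at 3 h, -0.12 at 12 h and 0.37 at 24 h, with 3, 3 and 6 of 10 above. All probe sets tested had medians of -0.01, -0.01 and -0.03. Over all comparisons 5 of 16 enzymes, 3 of 8 transport and control genes and 6 of 10 hypoxia-only genes passed at least once, 14 of the 34 in all, beside 13.2% of named genes that passed in at least 1 of the 11 comparisons. Of the 34 genes, 12 had their highest signal on the untreated 24 h array, 8 on the BMP4 24 h array and 7 on the BMP4 3 h array. The lowest signal fell on these arrays for 3, 5 and 8 genes. The same counts over all genes were not made.

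**Figure D3:**
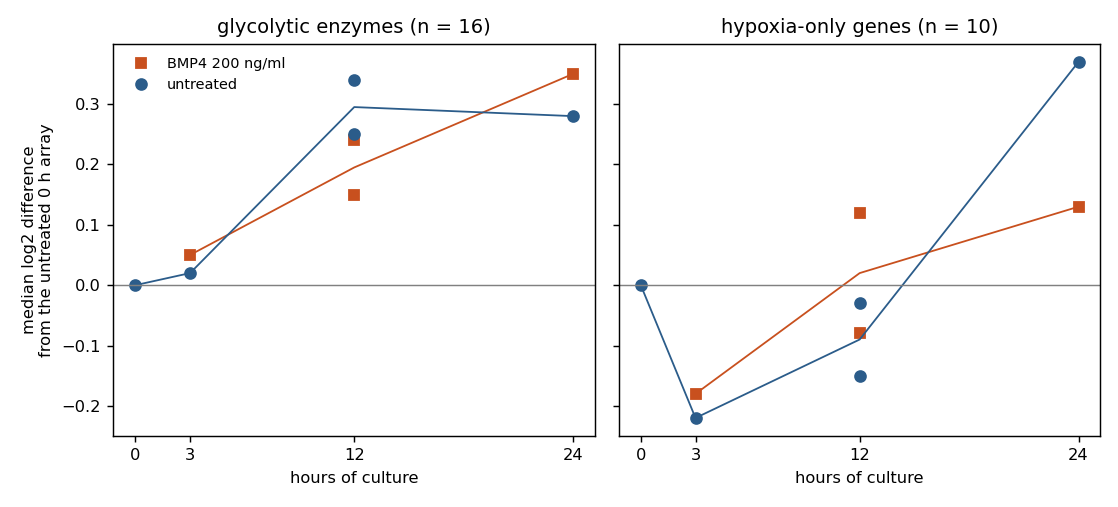
Median log2 difference from the untreated 0 h array for the 16 glycolytic enzymes (left) and the 10 hypoxia-only genes (right), against hours of culture, 1 point per array and lines through the mean at each time. The enzymes reach 0.35 with BMP4 and 0.28 without at 24 h, and the hypoxia-only genes 0.13 with BMP4 and 0.37 without. The gap between 2 such medians is not the median BMP4 difference gene by gene. That median at 24 h was -0.08 for the enzymes and 0.04 for the hypoxia-only genes, of the other sign in both lists.

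Few of the 34 genes passed the threshold for BMP4. Across 3, 12 and 24 h, 1 member, SLC2A1, was lower, beside 0.708% of named genes. At 3 h none passed, beside 0.0256% of named genes called in either direction, and none had an unadjusted p under 0.05 in limma, beside 4.2% of named genes. At 12 h none passed either, beside 1.03% called, and 4 had an unadjusted p under 0.05 in limma, beside 11.0% of named genes. At 24 h VEGFA and CA9 were lower, beside 0.776% of named genes called lower. There 9 of the 34 had an unadjusted p under 0.05 in limma, beside 12.3% of named genes. At 12 h the range of the BMP4 pair lay above that of the untreated pair for 4 members and below it for 8, and the ranges overlapped for 22. The same count over all genes was not made, so this is not read as a result about the members.

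No enzyme passed for BMP4 at any time. Their median difference was 0.03 at 3 h, -0.04 at 12 h and -0.08 at 24 h, and that of all probe sets tested was -0.01, -0.01 and 0.0. By the brightest probe sets the widest gaps at 24 h were PFKM at 1.13 ± 0.29 (adjusted p = 0.148), ENO2 at -0.96 ± 0.42 (adjusted p = 0.478), HK1 at 0.64 ± 0.24 (adjusted p = 0.387) and LDHA at -0.64 ± 0.29 (adjusted p = 0.493). The second, dimmer ENO1 probe set gave -0.91 at 24 h and did not pass, where the bright one gave 0.09.

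SLC2A1 was lower with BMP4 by -0.62 ± 0.13 across times (adjusted p = 0.0309). The 4 BMP4 values given above each lie below the untreated array or arrays of the same time, and the differences were -0.49 at 3 h, -0.71 at 12 h and -0.55 at 24 h. None of the 3 passed alone. Without the variance trend the adjusted p across times was 0.283, and calls over all probe sets went from 340 to 4. The call across times ended without any 1 of the 12 h arrays or either 24 h array, where the difference lay between -0.52 and -0.67 and the adjusted p between 0.0592 and 0.146. SLC16A1 came close at 24 h, at -1.08 ± 0.21 (adjusted p = 0.0587), and a second probe set with a mean of 1541 gave -1.11 (adjusted p = 0.102). The dimmest SLC16A1 probe set had the other sign, at 1.66.

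VEGFA, the main growth factor of endothelial cells, separated at 24 h. With BMP4 it read 421 at 3 h, 377 and 311 at 12 h and 177 at 24 h. Without BMP4 it read 490 at 0 h, 323 at 3 h, 385 and 351 at 12 h and 1279 at 24 h. The untreated 24 h array was the highest of the 9 and the BMP4 24 h array the lowest, while the arms overlapped at 12 h. The difference was -2.68 ± 0.34, or 6.39-fold lower (adjusted p = 0.00877). The change of the BMP4 effect between 3 and 24 h, -3.03 ± 0.49, did not pass (adjusted p = 0.0834). At 24 h the VEGFA receptor KDR read 1608 with BMP4 and 948 without, and the receptor FLT1 read 418 with BMP4 and 584 without. Neither receptor passed for BMP4.

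CA9, a carbonic anhydrase of the cell surface and a classic hypoxia marker in human tumours, was lower with BMP4 at 24 h. It read 11848 at 3 h, 6445 and 7757 at 12 h and 2537 at 24 h with BMP4, and 14017 at 0 h, 10583 at 3 h, 11045 and 10278 at 12 h and 12322 at 24 h without. The 3 later BMP4 arrays lay below every untreated array, and the BMP4 3 h array lay within the untreated range. The difference was 0.16 ± 0.19 at 3 h, -0.59 ± 0.13 at 12 h (adjusted p = 0.098) and -2.27 ± 0.19 at 24 h, or 4.81-fold lower (adjusted p = 0.000599). The effect at 24 h differed from that at 3 h by -2.43 ± 0.26 (adjusted p = 0.02), and CA9 was the 1 member so called, beside 0.102% of named genes called lower. VEGFA and CA9 were lower where ADM, at 0.42 ± 0.24 (adjusted p = 0.621), and BNIP3, at 0.36 ± 0.27 (adjusted p = 0.734), had the other sign and did not pass. By the brightest probe sets 6 of 10 hypoxia-only genes were above 0 at 24 h, with a median of 0.04. Other tested probe sets gave the opposite sign for BNIP3 (-0.23), HIF1A (-0.23), EGLN3 (-1.81) and NDRG1 (0.02), none passing. The count and the median thus depend on the probe set. At 24 h the cardiomyocyte markers MYH7B and ACTN2, 2 of 7, were higher with BMP4. Of the 7 foregut and epithelial markers, HHEX was higher and PAX9 was lower. PAX6 and SOX3, 2 of 7 neural markers, and TFAP2B, 1 of 6 neural crest markers, were lower. The 7 neural markers summed to 8853 with BMP4 against 7850 without, most of it from NES, at 8249 against 4904. ELAVL4 also read higher with BMP4, at 110 against 98.9. SOX2 (31.9 against 118), SOX1 (28.8 against 51.3) and TUBB3 (293 against 487) read lower, as did PAX6 and SOX3. TFAP2B read 844 with BMP4 against 6721 without, and the other 5 neural crest markers summed to 4377 against 3380. Of these, ETS1 (2808.5 against 1703.7) and NGFR (59.0 against 22.7) read higher with BMP4. SOX10 (254.9 against 290.4), FOXD3 (5.3 against 34.7) and SNAI2 (1249.5 against 1328.5) read lower, as did TFAP2B. The part of these markers in the VEGFA and CA9 differences was not tested. Each arm holds 1 array at 24 h. Without the variance trend, where no probe set was called at 24 h, the adjusted p was 0.35 for both VEGFA and CA9. With no filter that of the change in CA9 was 0.0536.

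**Figure D4:**
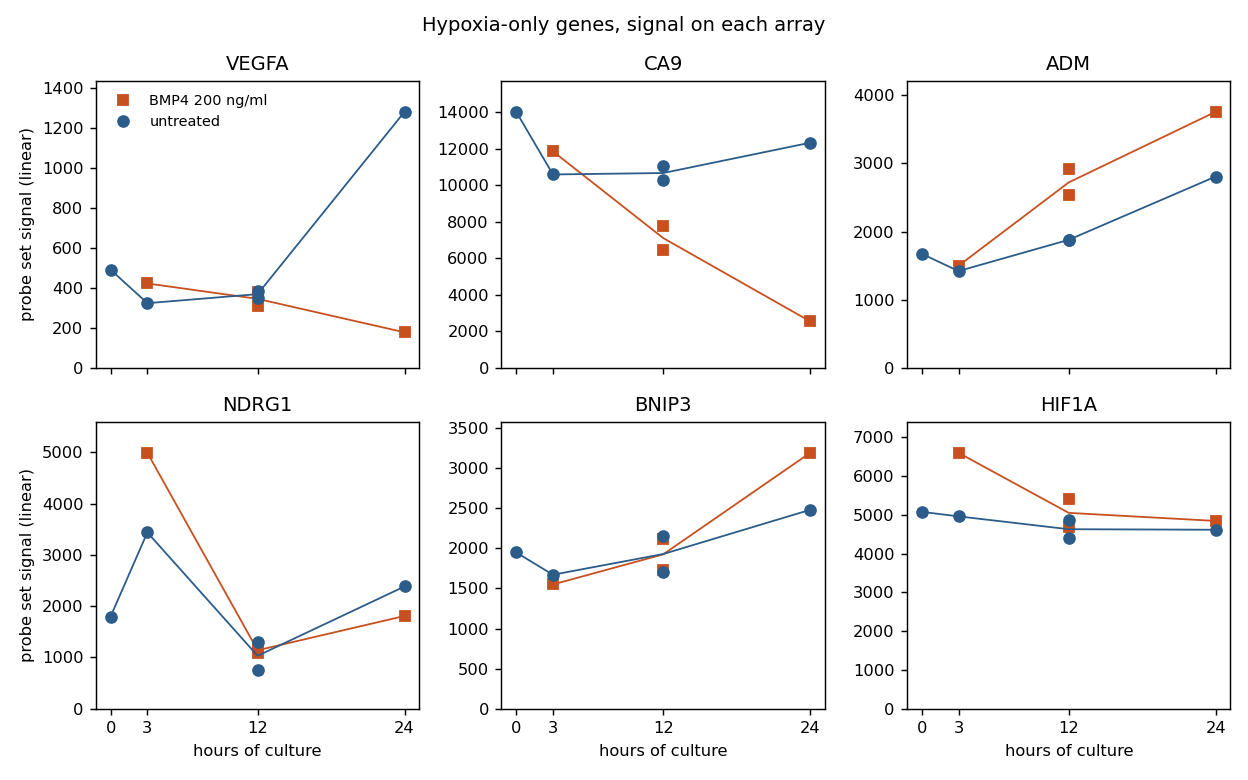
Signal of 6 hypoxia-only genes (linear scale, from 0) against hours of culture, with squares for BMP4-treated arrays, circles for untreated arrays and lines through the mean at each time. CA9 falls to 2537 with BMP4 at 24 h against 12322 without, and VEGFA stands at 177 with BMP4 against 1279 without. NDRG1 is highest at 3 h in both arms, which is the first time taken with BMP4.

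**Figure D5:**
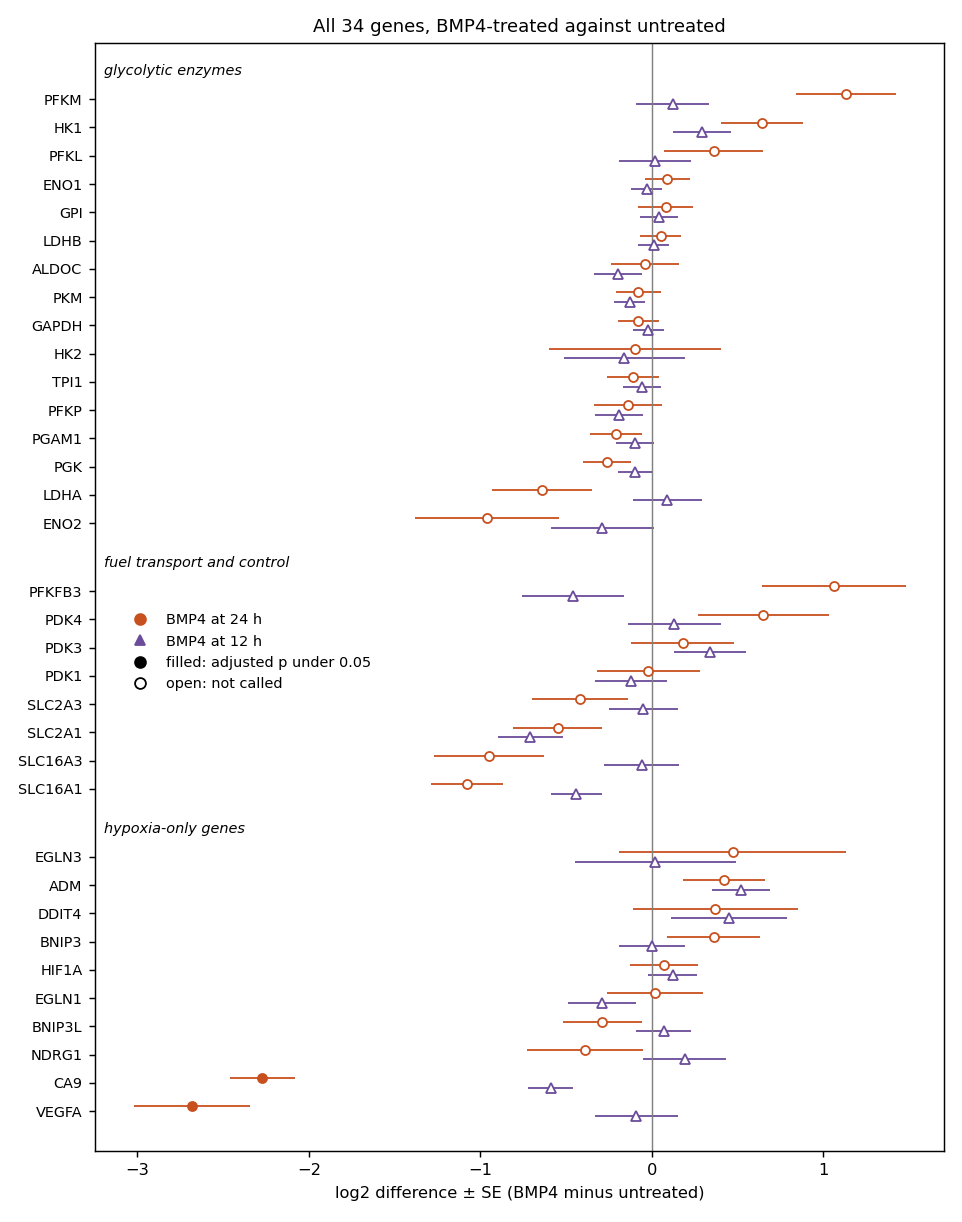
Log2 difference of BMP4-treated minus untreated explants with its standard error for all 34 genes by role, circles at 24 h and triangles at 12 h, filled where the adjusted p is under 0.05. The filled points are CA9 at -2.27 and VEGFA at -2.68, both at 24 h.

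Of the other genes of these pathways, 52 of 69 listed had a probe set and 49 were tested. Between 3 and 24 h 7 rose and 1 fell, beside 5.64% and 4.31% of named genes, with a median of 0.34. Without the variance trend 2 of 22 calls of these genes over all comparisons were left, those of KDR and TFRC between 3 and 24 h. EPAS1, which encodes the sister factor HIF-2 alpha, was the 1 gene of the 49 higher with BMP4. It read 228 at 3 h, 2256 and 1381 at 12 h and 6314 at 24 h with BMP4, and 257 at 0 h, 242 at 3 h, 233 and 223 at 12 h and 770 at 24 h without. The arms lay close at 3 h and apart from 12 h on, by 2.81 ± 0.26 at 12 h (adjusted p = 0.00111) and 2.99 ± 0.37 at 24 h (adjusted p = 0.00813). Without the variance trend, where limma called 0 probe sets at either time and 2339 and 2800 had an unadjusted p under 0.05, the adjusted p of EPAS1 was 0.258 at 12 h and 0.35 at 24 h. So among the HIF alpha subunits EPAS1 was higher with BMP4, and HIF1A did not pass.

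EPAS1 also differed by 3.10 ± 0.55 between 24 and 3 h (adjusted p = 0.00472). PFKFB1, of the same enzyme family as PFKFB3, rose by 0.68 ± 0.17 between 3 and 24 h (adjusted p = 0.0326). PGD of the pentose phosphate branch rose by 0.61 ± 0.11 (adjusted p = 0.00559). MXI1, a MYC antagonist, rose by 1.17 ± 0.20 (adjusted p = 0.00354), and P4HA1, a collagen prolyl hydroxylase, by 0.89 ± 0.19 (adjusted p = 0.0125). TFRC, the transferrin receptor, rose by 1.65 ± 0.19 (adjusted p = 0.000189) and KDR by 2.08 ± 0.26 (adjusted p = 0.000345). Between 3 and 12 h MPC2, a subunit of the mitochondrial pyruvate carrier, rose by 0.51 ± 0.10 (adjusted p = 0.0176) and TALDO1 of the pentose branch by 0.40 ± 0.09 (adjusted p = 0.025).

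STC2, a secreted glycoprotein of the stress response, was also highest at 3 h in both arms. It read 2191 at 3 h, 349 and 562 at 12 h and 295 at 24 h with BMP4, and 231 at 0 h, 1921 at 3 h, 653 and 1005 at 12 h and 695 at 24 h without. It rose by 2.91 ± 0.41 in the first 3 h of untreated culture (adjusted p = 0.0179) and was lower at 24 than at 3 h by -2.11 ± 0.33 (adjusted p = 0.00196). HMOX1, haem oxygenase, read 189 at 24 h against 9.9 at 0 h in untreated explants (adjusted p = 0.0312), where the 0 h value lies under the 27.79 added, so that the size of its difference depends on that amount.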

How the data were processed

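Each of the 9 arrays has 1 column of deposited values, which are linear MAS5 signals (unit: intensity) per the submitters' processing notes; the scaling is not given in the sources used here. Quantiles of the arrays agreed within a ratio of 1.018, and no scaling was added. Of 38535 probe sets, 96 controls were left out and 10110 were dropped for not exceeding the 40th percentile of their own array on at least 2 arrays. The 25th percentile, 27.79, was added before log2, and limma 3.58.1 in R 4.3.3 was fitted with a variance trend. Two-sided p-values were adjusted by Benjamini-Hochberg over 28329 probe sets. The BMP4 effect across times and the time effects over both agents used the 8 cultured arrays (terms for time and agent, 4 residual degrees of freedom). Other comparisons used 9 arrays in 7 groups (2 residual degrees of freedom, both from 12 h), which takes groups of 1 array to be as variable as the 12 h pairs. The code was tested on simulated data.

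Genes were named from the array annotation and RefSeq (assembly GRCg7b). Values on every array are given for each member called in any comparison and for the members fixed by rule (GAPDH, PGK, LDHA, HK2, SLC2A1, SLC2A3, PDK4, VEGFA, ADM, HIF1A, NDRG1, BNIP3, EGLN3, DDIT4 and CA9), and other members by range, sign or call. The members, lists and rules were chosen with earlier results of these data known. The p-values reflect the spread between the samples at hand, which may be technical, and the number of arrays limits the precision. Alternatives tried were the amount added, the filter, the variance trend, quantile normalization, the probe set rule, the threshold, a replicate block and leaving out arrays.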

Additional observations from a re-analysis of the deposited data

Results flagged for a closer look

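The BMP4 effect on CA9 differed between times: BMP4 minus untreated was -2.27 on the log2 scale at 24 h against 0.16 at 3 h, and the change between them was -2.43 (adjusted p = 0.02 in limma). Each of these times holds 1 array per arm, so the spread behind the test comes from the 12 h pairs and from what limma borrows over all probe sets. No group holds enough arrays for a search for outlying samples.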

How the results depend on the processing

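Of 28 calls of single members, 4 held under every alternative run: HK1 and LDHA between 3 and 24 h, and LDHA and NDRG1 between 3 and 12 h. Of 453 values of single members under an alternative, 0 changed sign and 80 lost their call. Part of these values could not change sign. The threshold of 0.10 uses the main fit, and in the 9-array fit leaving out a 12 h array does not move differences between other groups. Changing the filter, dropping the variance trend or adding the replicate block does not move a log2 difference either. The cause of the lost calls was not tested. Without the variance trend, 2 members were called for 12 h against 3 h, where calls over all probe sets went from 892 to 126. For 24 h against 3 h 2 were called, where all calls went from 1868 to 429. For BMP4 across times 0 were called, where all calls went from 340 to 4. For BMP4 at 24 h and the change of the BMP4 effect, 0 members and no probe set were called. The same held for untreated 12 h and 24 h against 0 h and for 24 h against 12 h. With no filter, 0 were called for the change of the BMP4 effect and 1 for untreated 12 h. All calls there went from 17 to 1 and from 271 to 158. With the 50th percentile added, 5 were called for untreated 24 h, where all calls went from 458 to 466. When all probe sets of a gene were averaged, 2 were called for the change of the BMP4 effect, 1 for untreated 12 h, 5 for untreated 24 h and 2 for 24 h against 12 h, the median of the hypoxia-only genes for BMP4 at 24 h was -0.19, and that of the enzymes for untreated 24 h was 0.42. Calls over all 11721 averaged genes were 16, 173, 268 and 80 in the same order of comparisons. At an adjusted p under 0.10, 1 member was called for BMP4 at 12 h, 2 for the change of the BMP4 effect, 4 and 7 for untreated 12 h and 24 h, 11 for 12 h against 3 h and 2 for 24 h against 12 h. Calls over all probe sets in the same order were 323, 38, 509, 833, 1449 and 298. At 0.05 they were 174, 17, 271, 458, 892 and 154. Without the 3 h pair 3 were called for BMP4 across times, where all calls went from 340 to 591. Without the 24 h pair 0 were called, where all calls went from 340 to 146. Leaving out 1 array at a time gave 0 to 3 for BMP4 across times, 2 for the change of the BMP4 effect, 3 for BMP4 at 24 h, 2 to 3 for untreated 12 h, 5 for untreated 24 h, 2 to 9 for 12 h against 3 h, 1 to 2 for 24 h against 12 h and 6 to 12 for 24 h against 3 h. Without any 1 of the 12 h arrays, calls over all probe sets rose for BMP4 at 24 h, the change of the BMP4 effect and untreated 24 h. They fell for BMP4 across times and for the comparisons of time over both agents. The member counts with an array left out are thus not read as a result about the members. Leaving out the lone 3 h and 24 h arrays was added after seeing the data. The labels do not pair A and B between the arms, and their deviations correlated at 0.126. With A and B as a replicate block, 4 members were called for BMP4 at 12 h, 6 for BMP4 at 24 h, 3 for the change of the BMP4 effect, and 2, 7 and 12 for untreated 3, 12 and 24 h against 0 h. Calls over all probe sets grew as well under the block: 1106 against 174 for BMP4 at 12 h, 1367 against 204 for BMP4 at 24 h, 612 against 17 for the change of the BMP4 effect, and 1087 against 93, 1747 against 271 and 2250 against 458 for untreated 3, 12 and 24 h. Precision is limited by the single arrays at 0, 3 and 24 h, and by signals near background for EGLN3, DDIT4 and HK2.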
